A study of Mus musculus with 16 samples.

Results

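CX3CR1+ macrophages and F4/80− myeloid cells were compared as they were sorted on day 1 after anterior cruciate ligament reconstruction (ACLR) in mice, from the interface tissue between the tendon graft and bone. The comparison took the 4 libraries that the labels assign to these 2 populations on day 1, 2 libraries each, out of the 16 bulk RNA-seq libraries of the series. All mice were wild-type C57BL/6 and all had the surgery, so no library came from an unoperated knee. CX3CR1+ macrophages were sorted as live, lineage-negative CD45+ cells that were Ly6G−, CD11b+, F4/80+, CX3CR1+ and CD9−, and F4/80− cells passed the same steps up to CD11b but lacked F4/80. The F4/80− gate was thus defined by what it leaves out: it set no limit on CX3CR1 or CD9, and any CD45+ CD11b+ cell without Ly6G, F4/80 or a lineage marker could enter it. Cells of several mice were pooled for a library, and per the study's methods the harvested tissue included a thin layer of underlying bone. The remaining 12 libraries were CD9+ macrophages and neutrophils of day 1 and all 4 populations of day 14; they shared the fit, and the neutrophils of day 1 and the day 14 libraries are used below where named.

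As background, macrophages at a wound derive largely from blood monocytes, which enter the tissue, switch on F4/80 and acquire genes for lysosomal digestion, clearance of dying cells and lipid handling. Neutrophils make their granule proteins in waves during development in the bone marrow: the azurophil or primary granules first, the secondary and tertiary granules next, and the receptors of the mature cell last, so that a transcript can mark a stage. Basophils carry CD11b but neither F4/80 nor Ly6G, and are recognized by the high-affinity IgE receptor and by their own proteases.

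The 4 libraries held 17440228 to 19814119 gene counts, and 11.6% to 14.6% of them were mitochondrial. The 2 libraries of a population resembled each other (Pearson's r of log2 CPM [counts scaled to library size] across genes of 0.98 in each population), yet differed by more than counting error. Genes with a mean of at least 3 CPM in any group of the series were tested, 11998 of the 20200 genes in the count table. A differentially expressed gene (DEG) had a Benjamini-Hochberg adjusted p below 0.05 by the quasi-likelihood test of edgeR and a log2 (fold-change) of at least 1 in size, and positive values mean higher in CX3CR1+ macrophages. The level of a gene is given as CPM scaled by the trimmed mean of M-values (TMM), the 2 libraries of a population in order. An error after ± is a standard error (SE) of the log2 (fold-change), derived as its size over the square root of the F statistic of the test. For a gene with few or no counts in a population, both values depend on the prior count. In sorted bulk samples, fewer cells of a type and less RNA per cell cannot be told apart.

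There were 2533 DEGs between CX3CR1+ macrophages and F4/80− cells on day 1. Of all tested genes, 1223 (10.2%) were higher and 1310 (10.9%) were lower in CX3CR1+ macrophages, and the median log2 (fold-change) over all of them was 0.0035. The values of the populations did not overlap for 2531 of the DEGs, as for 8790 (73.3%) of all tested genes, so that with 2 libraries a group a lack of overlap was common and sets no DEG apart. Large differences were mostly in one direction: 472 DEGs were lower by at least 3 on the log2 scale and 172 were higher by as much. The gene lists below are read against these shares. Some genes belong to several lists, so that the counts of different lists are not independent.

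**Figure D1:**
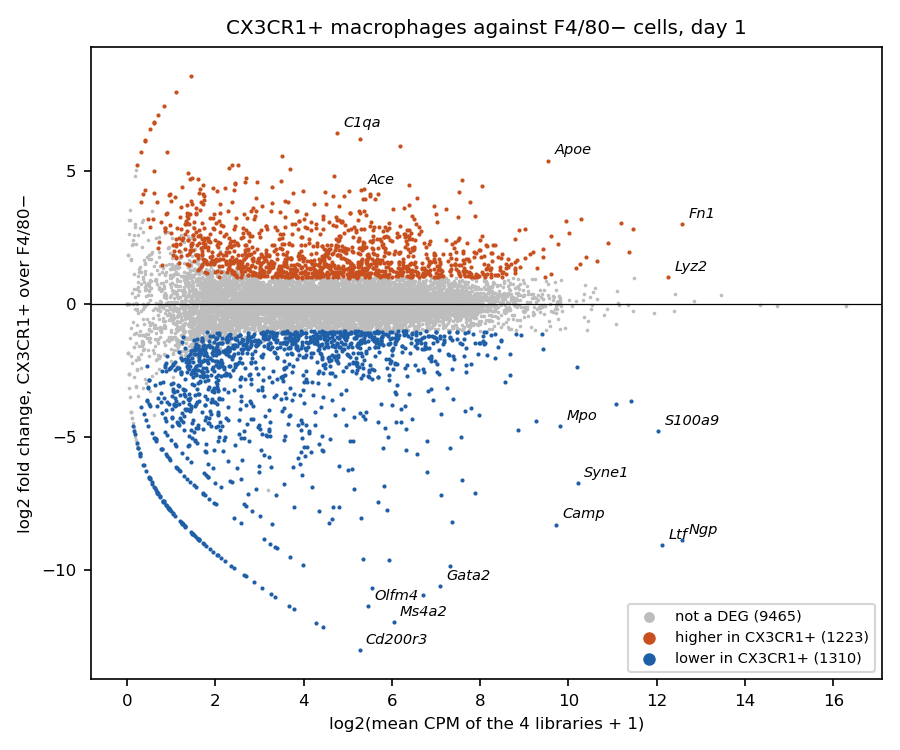
Each point is a tested gene, with its mean level over the 4 libraries as log2(CPM + 1) on the x axis and the log2 (fold-change) of CX3CR1+ macrophages over F4/80− cells on the y axis; 1223 genes were higher (orange) and 1310 lower (blue). Points on the curved lower and upper edges are genes with few or no counts in one population, whose fitted values are set by the prior count and are no measured fold.

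The genes of the sort went with the labels. Adgre1, which encodes F4/80, was at 170.3 and 184 CPM in CX3CR1+ macrophages and 13.8 and 8.40 CPM in F4/80− cells. Cx3cr1 was at 133 and 147 CPM against 21.8 and 18.8 CPM, so that its transcript was not absent from the F4/80− cells. Cd9, excluded from the CX3CR1+ gate only, was at 18.4 and 20.99 CPM against 108 and 107 CPM. These genes chose the cells and are no finding. Among the genes of markers that both gates shared, Itgam (CD11b) and Ptprc (CD45) were not DEGs. Itgam was at 222 and 263 CPM against 205 and 181 CPM, and Ptprc at 1139.9 and 1247 CPM against 656 and 616 CPM. Ptprc passed the adjusted p by edgeR (3e-05) and missed only the fold threshold, with a log2 (fold-change) of 0.91. Ly6g, which both gates excluded, had 3 counts in all in CX3CR1+ macrophages and was at 9.63 and 6.94 CPM in F4/80− cells, compared with 125 and 81.4 CPM in the Ly6G+ neutrophils of the same day. Kit, among the lineage markers, was at 30.3 and 31.9 CPM in F4/80− cells and at 1.14 and 0.313 CPM in CX3CR1+ macrophages.

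CX3CR1+ macrophages were marked by genes of macrophage maturation. Of the 21 genes of that list 20 were tested, 17 were higher in CX3CR1+ macrophages, Vcam1 was lower, and 2 were not DEGs; the median log2 (fold-change) was 3.87, against 0.0035 over all genes. The 3 chains of complement C1q, which opens the classical complement pathway and is made by tissue macrophages, were among the 15 highest ratios of the genes with at least 20 CPM. C1qa was at 56.7 and 46.7 CPM in CX3CR1+ macrophages and 1.22 and 0 CPM in F4/80− cells (log2 [fold-change] 6.42 ± 0.64, adjusted p = 1.47e-06 by edgeR). C1qb was at 158 and 124 CPM against 3.79 and 0.776 CPM (5.96 ± 0.50). C1qc was at 82.6 and 66.7 CPM against 1.80 and 0.228 CPM (6.21 ± 0.52). The first F4/80− library was the higher one for each chain, and even there the level was far below both CX3CR1+ libraries. The size of these ratios differed with the library: without the second F4/80− library the log2 (fold-changes) of C1qa, C1qb and C1qc were 5.41, 5.22 and 5.37, and without the first 7.49 for C1qb and 8.30 for C1qc, while C1qa then had no count in F4/80− cells and its fitted value (12.44) was no measured fold. The 3 genes lie side by side on chromosome 4 of mm10, C1qa at chr4:136895917-136898803, C1qc at chr4:136889804-136893065 and C1qb at chr4:136880129-136886187.

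Apoe, a lipid carrier that macrophages secrete, was at 1599.5 and 1310.0 CPM in CX3CR1+ macrophages and 35.9 and 33.4 CPM in F4/80− cells (5.39 ± 0.25, adjusted p = 1.31e-09 by edgeR). Maf, a transcription factor that holds macrophages in their mature state, was at 79.8 and 88.03 CPM against 5.06 and 4.52 CPM. Csf1r, the receptor for the macrophage growth factor CSF1, differed less, at 878 and 947 CPM against 128 and 129.6 CPM (2.83 ± 0.20), and its level in F4/80− cells was well above 0. Siglec1, a sialic acid receptor, was at 26.6 and 19.9 CPM against 1.22 and 0.183 CPM. Mertk, a receptor for the engulfment of dying cells, was at 17.5 and 22.1 CPM against 1.22 and 0.365 CPM, and Fcgr1, the high-affinity IgG receptor, at 135 and 149 CPM against 11.8 and 11.4 CPM. Pla2g7 (platelet-activating factor acetylhydrolase; 4.68), Lgmn (the lysosomal protease legumain; 4.23) and Aif1 (IBA1; 4.24) were also among the 15 highest log2 (fold-changes).

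**Figure D2:**
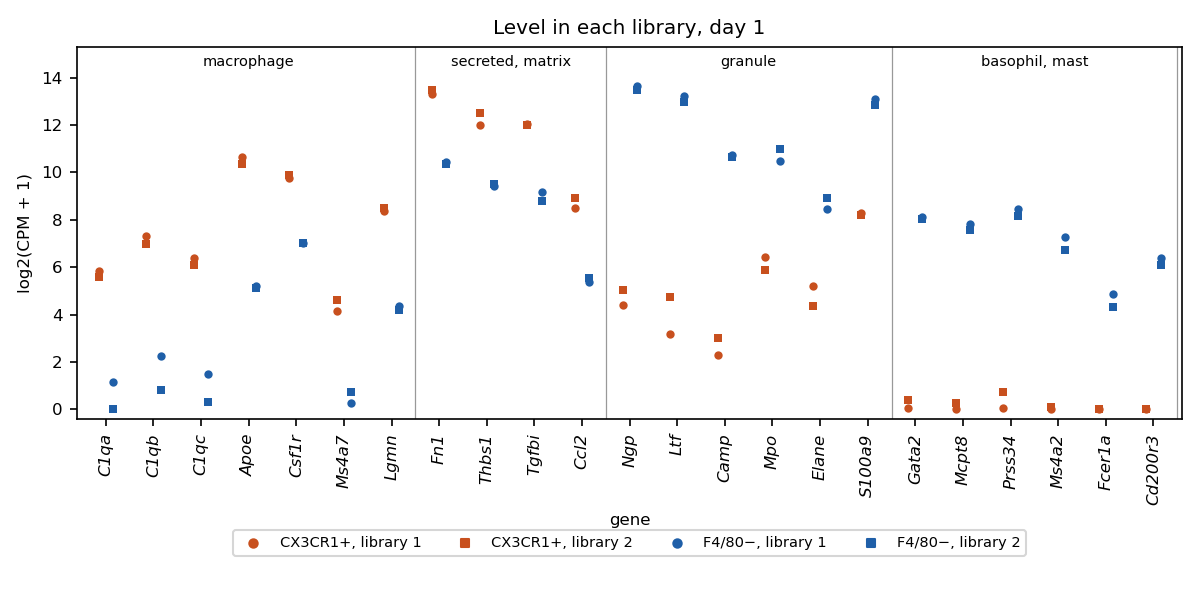
Levels of 23 genes as log2(CPM + 1) in each of the 4 libraries, CX3CR1+ macrophages in orange and F4/80− cells in blue, with a circle for the first library and a square for the second. In every gene shown the 2 libraries of a population lay closer to each other than to the other population, and Cd200r3 and Fcer1a had no count in either CX3CR1+ library.

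Monocyte genes of both kinds were more often higher than lower in CX3CR1+ macrophages, and several classical ones were not DEGs. Of 14 classical monocyte genes 7 were higher in CX3CR1+ macrophages, none was lower and 7 were not DEGs. Ccr2, the chemokine receptor that lets classical monocytes leave the marrow, was at 1364 and 1519.5 CPM against 305 and 302 CPM (2.25 ± 0.23). Vcan, Ms4a4c, Ms4a6c, F13a1, Fn1 and Lyz2 were the others; Lyz2 was close to the fold threshold (1.03) and was below it without the second F4/80− library (0.91). Ly6c2, the gene of the surface marker used to sort classical monocytes, was at 238 and 221 CPM in CX3CR1+ macrophages and 277 and 275 CPM in F4/80− cells and was not a DEG (adjusted p = 0.34 by edgeR). Plac8 and Hp were not DEGs either, with log2 (fold-changes) of 0.16 and -0.29. F4/80− cells thus held several classical monocyte transcripts at levels from which CX3CR1+ macrophages could not be told apart with 2 libraries a group.

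Of 11 non-classical monocyte genes 7 were higher and 2 lower in CX3CR1+ macrophages, with a median log2 (fold-change) of 1.89. Adgre4, an adhesion receptor of patrolling monocytes, was at 45.2 and 50.9 CPM against 1.26 and 2.15 CPM (4.80 ± 0.30). Ace, the angiotensin-converting enzyme, was at 59.1 and 87.4 CPM against 1.94 and 5.48 CPM (4.29 ± 0.39). Its log2 (fold-change) was 3.74 without the first F4/80− library and 5.23 without the second. Nr4a1, the nuclear receptor that patrolling monocytes need and that is also induced on activation, was at 549 and 577 CPM against 159 and 144 CPM. The 2 lower genes were Spn, which encodes CD43 (-1.38), and Ceacam1 (-1.30).

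Several of the 10 genes with the largest CPM difference toward CX3CR1+ macrophages encode secreted and matrix proteins; CPM is not corrected for gene length, so that this order is no order of expression per transcript. Fn1, the matrix protein fibronectin, led them, at 10294 and 11415 CPM against 1388 and 1297 CPM (3.02 ± 0.25). Thbs1, which encodes thrombospondin 1, was at 4124 and 5788 CPM against 686 and 719 CPM, and Tgfbi, an adhesion protein induced by TGF-β, at 4177 and 4131 CPM against 572 and 442 CPM. All 3 were several times higher in both CX3CR1+ libraries. Of the growth factor and matrix list, 29 of 34 genes were tested, 13 were higher and 4 lower. Tgm2, a transglutaminase that cross-links matrix proteins, had the highest log2 (fold-change) of them (3.85 ± 0.30), and Arg1, Spp1, Mmp14, Mmp19 and Tgfb1 were higher by 1.82, 2.21, 2.10, 2.45 and 1.12. The 4 lower genes were Mmp9 (-7.11), Hgf, which encodes hepatocyte growth factor (-2.47), Mmp12 (-2.53) and Serpinb2 (-1.53). Mmp9 was at -6.28 without the first CX3CR1+ library and -8.98 without the second. Mmp12, at a few CPM, was no longer a DEG without the first CX3CR1+ library (-2.11) or the second F4/80− library (-1.85), nor Serpinb2 without the first CX3CR1+ library (-1.23).

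The lipid, heme and iron list shares Apoe, Trem2, Gpnmb and Cd163 with the macrophage maturation list. Its genes were higher in CX3CR1+ macrophages in 19 of 22 cases, with a median log2 (fold-change) of 2.06. Besides Apoe they included the scavenger receptor Cd36 (20.97 and 27.3 CPM against 1.94 and 2.33 CPM), the cholesterol exporter Abca1 (148 and 187 CPM against 25.7 and 28.1 CPM), the heme-degrading enzyme Hmox1 (339 and 595 CPM against 82.7 and 123 CPM) and Trem2 (45.1 and 36.05 CPM against 5.30 and 4.20 CPM). Iron handling ran in opposite directions within the list. The ferritin chains Fth1 and Ftl1, which store iron, were higher by 1.49 and 1.17. Slc40a1, the iron exporter ferroportin, was lower, at 0.219 and 1.41 CPM against 55.2 and 50.7 CPM (-6.08 ± 0.37, adjusted p = 1.69e-08 by edgeR), with a log2 (fold-change) of -5.23 without the first CX3CR1+ library and -7.86 without the second. Lower too was Tfrc, the transferrin receptor that takes iron up (14.01 and 9.64 CPM against 56.7 and 54.1 CPM). This grouping of the iron genes was made after their values were seen.

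Lysosomal genes were higher in 18 of 31 cases, lower in 1 and not DEGs in 12, with a median of 1.30. Lgmn and Cd68 belong to this list and to the macrophage maturation list. Ctss, a cathepsin that trims the chain bound to MHC class II, was at 1786 and 1771 CPM against 213 and 191 CPM, and Psap, the precursor of the saposins, at 3128 and 3225 CPM against 642 and 639 CPM. Cd63, a tetraspanin of lysosomes and granules, was the one lower gene, at 13.6 and 10.99 CPM against 121 and 119 CPM. It shared this direction with the tetraspanins Cd81 (-2.13), Cd82 (-1.16) and Cd9, whose product the CX3CR1+ gate excluded. Of the 26 tested tetraspanins, integrins and other adhesion genes 6 were higher, 5 lower and 15 not DEGs, with a median of 0.36. Of the 12 integrins among them, set apart after their values were seen, 5 were higher, 1 lower and 6 not DEGs: Itgb5, Itga5, Itga4, Itgav and Itgb7 were higher by 3.67, 1.68, 1.60, 1.57 and 1.03, while Itgb3 was lower (-2.60). Itgb7 fell below the fold threshold without the first CX3CR1+ library (0.98) or the second F4/80− library (0.98).

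**Figure D3:**
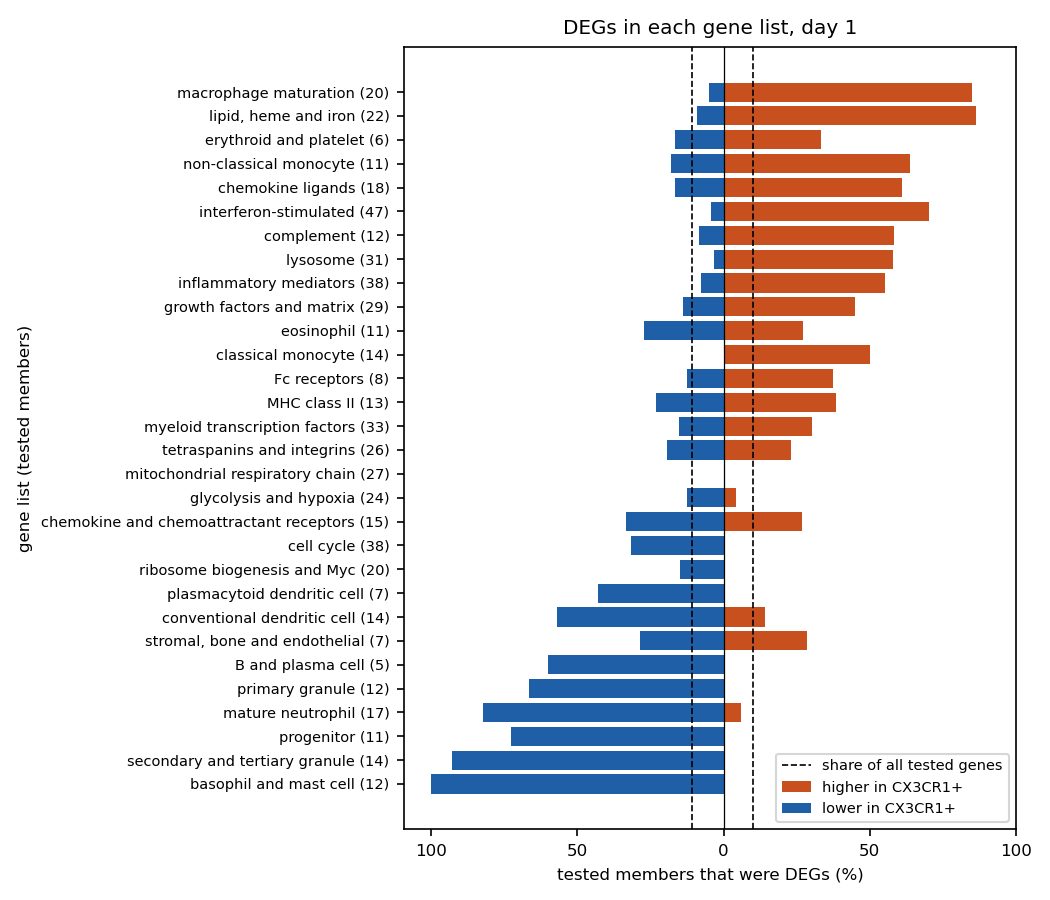
For each gene list with at least 5 tested members, the bars give the percentage of tested members that were DEGs, higher in CX3CR1+ macrophages to the right and lower to the left, in order of the median log2 (fold-change); dashed lines mark the shares over all tested genes, 10.2% and 10.9%. Macrophage maturation lies at the top and basophil and mast cell genes, lower in 12 of 12 cases, at the bottom.

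Inflammatory genes were higher in CX3CR1+ macrophages for 21 of 38 tested members and lower for 3, with a median of 1.21. Of the 8 Toll-like receptors in the list, which sense microbial products and were grouped after their values were seen, 7 were higher: Tlr1, Tlr2, Tlr6, Tlr7, Tlr8, Tlr9 and Tlr13 by 3.02, 2.41, 1.71, 2.92, 2.89, 2.38 and 2.42. Tlr4 (0.99) was just under the fold threshold, and above it without the first CX3CR1+ library (1.01) or the first F4/80− library (1.08). Il1b, which encodes interleukin 1β, was at 417 and 478 CPM against 79.8 and 70.7 CPM (2.57 ± 0.19), and Socs3, which restrains cytokine signaling, at 805 and 681 CPM against 126 and 149 CPM. Il6 went the other way. It was at 2.89 and 2.08 CPM in CX3CR1+ macrophages and 54.02 and 62.02 CPM in F4/80− cells (-4.53 ± 0.30, adjusted p = 3.05e-08 by edgeR), and Acod1, which makes itaconate, was also lower in CX3CR1+ macrophages (4.77 and 8.86 CPM against 31.5 and 29.6 CPM).

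Chemokine ligands were called in both directions. The monocyte attractants that act through CCR2 were higher in CX3CR1+ macrophages: Ccl2 at 366 and 484 CPM against 40.6 and 45.4 CPM (3.30 ± 0.21), Ccl7 at 64.3 and 89.6 CPM against 3.21 and 4.52 CPM (4.31 ± 0.31), and Ccl12 at 2.93 and 5.0 CPM against 0.340 and 0.320 CPM. Ccl12 was not a DEG without the first (3.59) or the second (3.51) F4/80− library. The neutrophil attractant Cxcl2 was higher too (1.77), whereas Cxcl1 and Cxcl3 were not DEGs; Cxcl3 was one without the first CX3CR1+ library (1.26). Ccl3 and Ccl4, the macrophage inflammatory proteins, were lower in CX3CR1+ macrophages, at 116 and 123 CPM against 495 and 408 CPM and 30.03 and 32.6 CPM against 174 and 129.7 CPM, and Ccl22 was lower by 4.60 on the log2 scale. Ccl22 was at a log2 (fold-change) of -6.57 without the first CX3CR1+ library and -3.85 without the second. In all, 11 of 18 tested ligands were higher and 3 lower. Of the receptors, the higher ones included Cmklr1, the chemerin receptor (3.94), Ccr2 and C3ar1 (2.16), and Cxcr2, Ccr3, S1pr4, Fpr1 and Fpr2 were lower.

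Interferon-stimulated genes (ISGs) were higher in CX3CR1+ macrophages for 33 of 47 tested members and lower for 2, with a median log2 (fold-change) of 1.60. These genes are switched on by interferon through the factor complex ISGF3, which binds the interferon-stimulated response element. Ifi204 was at 158 and 151 CPM against 13.3 and 9.77 CPM (3.74 ± 0.27), and Slfn5 at 242 and 219 CPM against 31.5 and 22.97 CPM (3.08 ± 0.25). Many others were at low levels in both populations. Rsad2, which encodes the antiviral enzyme viperin, was at 24.8 and 21.7 CPM against 2.53 and 3.15 CPM. Isg15, a ubiquitin-like modifier, was at 10.5 and 7.08 CPM against 1.36 and 1.64 CPM. Ifit3, a binder of foreign RNA, was at 9.85 and 9.58 CPM against 0.924 and 0.913 CPM; its near-identical neighbour Ifit3b was also a DEG, and reads that fit both genes make each value uncertain. The 2 lower ISGs were Ifitm1 (-1.03) and Ifitm6 (-2.56), membrane proteins that restrict viral entry. Ifitm1 was below the fold threshold without the second CX3CR1+ library (-0.96) or the first F4/80− library (-0.87).

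The promoters of 3 of these ISGs are shown because 33 of the 47 tested genes of the list were higher. Each is the 250 bases before the RefSeq gene start (mm10, GRCm38.p6), 5′ to 3′ on the gene's strand, with each match to GAAANNGAAA on either strand, the core of the interferon-stimulated response element, in capitals. They lie at chr4:156200819-156201068 (minus strand), chr19:34583279-34583528 (plus strand) and chr5:92348890-92349139 (minus strand).
Isg15: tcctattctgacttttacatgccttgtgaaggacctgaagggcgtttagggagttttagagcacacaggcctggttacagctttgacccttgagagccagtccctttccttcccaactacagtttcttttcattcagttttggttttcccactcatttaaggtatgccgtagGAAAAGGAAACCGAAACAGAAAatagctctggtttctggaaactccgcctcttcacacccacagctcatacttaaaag
Ifit3: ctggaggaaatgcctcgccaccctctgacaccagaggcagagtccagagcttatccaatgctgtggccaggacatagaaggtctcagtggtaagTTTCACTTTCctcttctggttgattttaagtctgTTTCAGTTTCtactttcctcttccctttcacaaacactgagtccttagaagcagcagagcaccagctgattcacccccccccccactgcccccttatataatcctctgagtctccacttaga
Cxcl10: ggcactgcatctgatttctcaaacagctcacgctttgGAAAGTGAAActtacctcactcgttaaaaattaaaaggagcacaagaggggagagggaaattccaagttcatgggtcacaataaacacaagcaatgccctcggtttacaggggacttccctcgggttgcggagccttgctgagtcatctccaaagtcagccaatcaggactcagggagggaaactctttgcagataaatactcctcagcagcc
Isg15 held 3 overlapping matches, the nearest starting 66 bases before the gene start, Ifit3 held 2 and Cxcl10 held 1. Cxcl10, a chemokine induced by interferon, was at 9.06 and 8.59 CPM against 2.09 and 1.69 CPM. The motif was found in 16 of the 24 higher ISGs with a RefSeq promoter (66.7%), in 5 of the 13 other tested ISGs with one (38.5%), and in 3.46% of all 27025 genes with a promoter in the table. A match is a description of the letters and was not tied to binding or to the difference here.

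MHC class II and co-stimulatory genes were divided. The abundant class II chains were not DEGs: H2-Aa, H2-Ab1, H2-Eb1 and the invariant chain Cd74 had log2 (fold-changes) of 0.50, 0.55, 0.40 and 0.68. Cd74, H2-Ab1 and H2-Aa passed the adjusted p by edgeR (0.00339, 0.0157 and 0.0416) and missed the fold threshold, and H2-Eb1 missed both (0.169). The co-stimulatory receptors Cd86 (55.2 and 70.2 CPM against 14.9 and 15.4 CPM), Cd80 and Cd40 and the peptide-loading genes H2-DMa and H2-DMb1 were higher in CX3CR1+ macrophages. H2-Oa, H2-Ob and H2-DMb2 were lower, by 2.68, 2.24 and 1.86 on the log2 scale, at levels of a few CPM in F4/80− cells. Without the first CX3CR1+ library H2-Oa was at -3.88 and H2-Ob at -2.84, and without the second H2-Oa was at -2.06. Without the second F4/80− library Cd40 (1.13), Cd80 (0.91) and H2-DMb1 (0.88) were not DEGs, nor was H2-DMb1 without the first CX3CR1+ library (0.97) or H2-Ob without the second (-1.82).

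F4/80− cells were marked by neutrophil granule genes, although the gate excluded Ly6G+ cells. Of 14 secondary and tertiary granule genes 13 were lower in CX3CR1+ macrophages, with a median log2 (fold-change) of -6.90; Mmp8 was the exception and was not a DEG. Ngp, a granule protein of neutrophils, was at 12839 and 11446 CPM in F4/80− cells and 20.3 and 31.7 CPM in CX3CR1+ macrophages (-8.87 ± 0.68, adjusted p = 1.17e-07 by edgeR). Ltf, which encodes lactoferrin, was at 9724 and 8134 CPM against 8.05 and 25.8 CPM (-9.05 ± 0.71), and Camp, the precursor of the antimicrobial peptide cathelicidin, at 1731 and 1613 CPM against 3.90 and 6.93 CPM (-8.28 ± 0.49). All 3 were among the 10 genes with the largest CPM difference toward F4/80− cells. For Ltf the second CX3CR1+ library was the higher one, and it was still far below both F4/80− libraries; its log2 (fold-change) was -8.44 without the first CX3CR1+ library and -10.11 without the second. The summed level of the list was 1139.9 and 1165 CPM in the CX3CR1+ libraries and 35337 and 30679 CPM in the F4/80− libraries.

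Of 12 primary granule genes 8 were lower in CX3CR1+ macrophages and 4 were not DEGs. Mpo, which encodes myeloperoxidase, was at 1441 and 2012 CPM in F4/80− cells and 84.7 and 58.1 CPM in CX3CR1+ macrophages (-4.59 ± 0.40). The serine proteases Elane and Prtn3 were at 348 and 482 CPM against 35.7 and 19.8 CPM and 192 and 251 CPM against 42.3 and 33.8 CPM. Prss57 had no count in CX3CR1+ macrophages and was at 13.9 and 15.4 CPM in F4/80− cells, at least 102-fold higher there against a floor of 3 counts per library. Gfi1 and Cebpe, transcription factors of granule formation, were at 28.9 and 26.6 CPM against 0.569 and 0.260 CPM and 116 and 101 CPM against 4.33 and 4.27 CPM. Of 17 mature neutrophil genes 14 were lower in CX3CR1+ macrophages, among them Retnlg (0.394 and 1.61 CPM against 122 and 97.96 CPM). The cystatins BC100530 and Stfa2l1 had no count in CX3CR1+ macrophages, so that no fold was measured, and their family members are near-identical, so that their counts are uncertain. Clec4e was higher (1.93), and Csf3r (-0.00037) and Trem1 (-0.22) were not DEGs.

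The Ly6G+ neutrophils of day 1 give a level against which these transcripts can be set; this comparison was added after the values were seen. Between F4/80− cells and these neutrophils 49% of all tested genes passed the same thresholds by edgeR. Of the 12 primary granule genes 9 were higher in F4/80− cells than in neutrophils and 3 lower: Mpo was at 1441 and 2012 CPM in F4/80− cells and 113 and 53.5 CPM in neutrophils (log2 [fold-change] 4.37 ± 0.40 SE), and Ctsg at 137 and 152 CPM and 8.60 and 4.64 CPM (4.43). Of the secondary and tertiary granule genes none was higher in F4/80− cells, 6 were lower and 8 were not DEGs: Ngp was at 20479.5 and 11596 CPM in neutrophils (-0.40, adjusted p = 0.475 by edgeR), Ltf at 16134 and 9386 CPM (-0.52) and Camp at 1693 and 938 CPM (0.35). All 17 mature neutrophil genes were lower in F4/80− cells, including Cxcr2, the receptor for neutrophil chemokines, at 140.3 and 107 CPM against 1863 and 1393 CPM (-3.72), and Csf3r, the receptor for granulocyte colony-stimulating factor, at 213 and 214 CPM against 3623 and 3795 CPM (-4.12). Mmp8 was at 3755 and 2468 CPM in neutrophils, far above 164 and 136 CPM in F4/80− cells and 218 and 219 CPM in CX3CR1+ macrophages. The median log2 (fold-change) of F4/80− cells over neutrophils was 2.92 for the primary granule list, -0.86 for the secondary and tertiary list and -2.10 for the mature list. The comparisons with CX3CR1+ macrophages and with neutrophils share the F4/80− libraries.

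**Figure D4:**
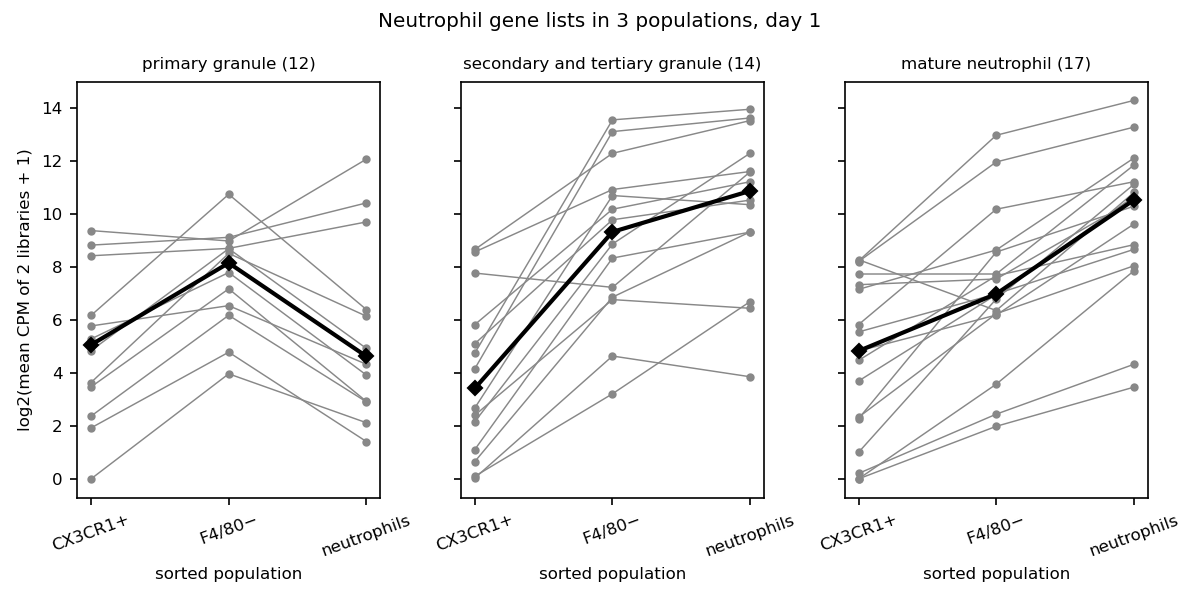
Mean level of each gene of the 3 neutrophil lists as log2(CPM + 1) over the 2 libraries of CX3CR1+ macrophages, F4/80− cells and neutrophils of day 1 (grey lines), with the median of each list in black. F4/80− cells hold the highest median for primary granule genes, lie nearer to neutrophils than to CX3CR1+ macrophages for secondary and tertiary granule genes, and lie between the populations for mature neutrophil genes.

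Of the 16 basophil and mast cell genes 12 were tested, and all 12 were lower in CX3CR1+ macrophages, with a median log2 (fold-change) of -10.01, or -8.19 with the 5 genes that had no count in CX3CR1+ macrophages set at their bound. The summed level was 1679 and 1465 CPM in F4/80− cells and 4.86 and 5.94 CPM in CX3CR1+ macrophages. Gata2, a transcription factor of basophils, mast cells and progenitors, was at 281 and 262 CPM in F4/80− cells and 0.0438 and 0.313 CPM in CX3CR1+ macrophages (-10.59 ± 0.53), or -9.72 without the first CX3CR1+ library and -12.32 without the second. The basophil proteases Mcpt8 and Prss34 were at 224 and 188 CPM against 0 and 0.208 CPM and 349 and 282 CPM against 0.0438 and 0.677 CPM. Fcer1a, the ligand-binding chain of the high-affinity IgE receptor, was at 27.9 and 18.9 CPM in F4/80− cells, at least 162-fold higher than in CX3CR1+ macrophages, and Cd200r3, an activating receptor of basophils, at 82.9 and 67 CPM, at least 521-fold higher. Ms4a2, the β chain of the IgE receptor, had 1 count in CX3CR1+ macrophages and was at 154 and 106 CPM in F4/80− cells, a ratio of 5462 (95% Poisson interval 980.4 to 215750.0, counting error only). Il4, the cytokine of type 2 immunity, was at 12.98 and 8.22 CPM in F4/80− cells with no count in CX3CR1+ macrophages, and Hdc, which makes histamine and is also a gene of mature neutrophils, was at 377 and 382 CPM against 3.63 and 4.06 CPM. Against day 1 neutrophils, 10 of the 12 genes were higher in F4/80− cells and 1 was lower.

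Other genes with the lowest ratios were of several kinds. Il18r1, a receptor chain for interleukin 18, was at 42.8 and 39.6 CPM in F4/80− cells and without a count in CX3CR1+ macrophages (at least 287-fold higher in F4/80− cells). Olfm4, a secreted protein of neutrophil granules, was at 84.01 and 88.6 CPM against 0 and 0.0521 CPM. Cyp11a1, the first enzyme of steroid synthesis, was at 83.9 and 74.9 CPM against 0.0875 and 0.104 CPM, and Cpa3, the carboxypeptidase of mast cells and basophils, at 128 and 111 CPM against 0 and 0.313 CPM. Syne1, which encodes the nuclear envelope protein nesprin-1, had 1 of the 10 largest CPM differences, at 2387 and 2328 CPM against 20.9 and 23.5 CPM (-6.73 ± 0.29). Igha, the constant region of IgA, was at 135 and 49.1 CPM, unequal between the F4/80− libraries.

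Markers of further cell types also differed between the populations. Of 11 tested progenitor genes 8 were lower in CX3CR1+ macrophages. The sum over the 11 was 717 and 756 CPM in F4/80− cells and 67.3 and 75.6 CPM in CX3CR1+ macrophages. Gata2 and Kit, whose levels are given above, are lower members of this list and of the basophil and mast cell list. Part of this sum and of this count thus repeats that list. Myb was at 129.6 and 145 CPM against 7.75 and 10.1 CPM and Erg at 42.5 and 47.95 CPM against 0.131 and 0.156 CPM. Of 14 tested conventional dendritic cell genes 8 were lower and 2 higher, with sums of 166 and 168 CPM and 122 and 122 CPM; Flt3 was at 21.1 and 27.9 CPM against 7.92 and 7.97 CPM, and Clec9a, of cross-presenting dendritic cells, at 2.33 and 2.88 CPM against 0.0875 and 0.208 CPM. Of 7 tested plasmacytoid dendritic cell genes 3 were lower, and Siglech had no count in CX3CR1+ macrophages. B and plasma cell genes were lower in 3 of 5 tested cases, with Jchain at 89.7 and 64.8 CPM against 13.7 and 15.1 CPM. Both tested natural killer cell genes, Nkg7 and Klrk1, were lower, and the 1 tested T cell gene, Cd3d, was not a DEG, at 0.131 and 0.625 CPM against 0 and 0.365 CPM. Sums over the tested members leave out list members below the filter. The B and plasma cell sum was 261 and 258 CPM in CX3CR1+ macrophages and 929 and 691 CPM in F4/80− cells. In the same order, the natural killer cell sum was 1.79 and 2.40 CPM and 16.4 and 24.8 CPM. The plasmacytoid dendritic cell sum was 301 and 280.0 CPM and 241 and 262 CPM. The part of these cell types, of basophils and of neutrophils in the other differences was not tested.

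A few markers went in both directions within a list. Among eosinophil genes Epx, Ear1 and Ear6 were higher in CX3CR1+ macrophages and Siglecf, Ccr3 and Alox15 were lower. Epx, eosinophil peroxidase, was at 7.18 and 12.1 CPM against 0 and 2.69 CPM, and Siglecf at 0.963 and 2.24 CPM against 18.1 and 19.7 CPM; the Ear genes are near-identical copies and their values are uncertain. Ear1 was not a DEG without the second CX3CR1+ library (2.30), and Epx was not a DEG by DESeq2 (2.81). The platelet chemokines Pf4 and Ppbp were higher in CX3CR1+ macrophages, at 10.1 and 30.8 CPM against 0.924 and 1.83 CPM and 3.33 and 13.2 CPM against 0.924 and 0.822 CPM, with the second CX3CR1+ library the higher one. Ppbp was not a DEG without that library (1.92) or without the second F4/80− library (3.14). By contrast, Itga2b, the integrin chain of platelets, was lower in CX3CR1+ macrophages, at 0.569 and 0.521 CPM against 73.6 and 63.2 CPM. Complement genes were higher in 7 of 12 cases, among them C1qa, C1qb and C1qc, which the macrophage maturation list also holds. Cd55, which protects cells from complement, was the 1 lower member, at 18.1 and 16.2 CPM in F4/80− cells with no count in CX3CR1+ macrophages.

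The Ms4a genes held members at both extremes. This family of tetraspan membrane proteins lies on chromosome 19, and its description was chosen after its values were seen. Of its 11 tested members 8 were higher in CX3CR1+ macrophages: Ms4a7 (5.55), Ms4a14 (4.58), Ms4a4a (4.48), Ms4a8a (4.25), Ms4a6d (2.75), Ms4a4c (2.68), Ms4a6b (2.57) and Ms4a6c (1.91). Ms4a4b was not a DEG. Ms4a7 was at 4.96 without the first F4/80− library and 6.63 without the second. The 2 lower members were the neighbours Ms4a2 at chr19:11615523-11623719 and Ms4a3 at chr19:11629496-11640851, the latter at 68.5 and 74.8 CPM in F4/80− cells and 5.91 and 2.45 CPM in CX3CR1+ macrophages. In the order of the chromosome they followed all the others: the closest higher gene, Ms4a6d, ends at position 11604849, and Ms4a2 starts at 11615523.

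Cell cycle genes were lower in CX3CR1+ macrophages for 12 of 38 members and higher for none, with a median of -0.50. All 12 belong to the 14 genes of DNA replication and the G1/S transition in the list, whose median was -1.34, and none of the 22 mitotic genes was a DEG, with a median of -0.29; this division was made after the values were seen. The MCM2-7 helicase, which unwinds DNA at replication forks, was lower in each of its 6 subunits. Mcm2 was at 59.2 and 45.99 CPM in CX3CR1+ macrophages and 162 and 168 CPM in F4/80− cells (-1.65 ± 0.22), and Mcm5 at 92.8 and 93.6 CPM against 208 and 236 CPM. Cdc6, which loads the helicase, was at 21.01 and 18.6 CPM against 74.8 and 79.2 CPM. Rrm2, which makes deoxynucleotides, was at 81.9 and 79.3 CPM against 307 and 319 CPM, and Ccne2, which encodes cyclin E2, at 16.5 and 12.3 CPM against 84.99 and 76.1 CPM (-2.48 ± 0.28). For comparison, the mitotic genes Mki67 (adjusted p = 0.0107, below the fold threshold) and Top2a were at 1577 and 1656 CPM against 2710.1 and 2735 CPM and 530.2 and 518 CPM against 677 and 662 CPM.

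Replication genes are known targets of E2F factors, and the promoters of 2 of them are shown, drawn in the same way, with TTTCCCGC and TTTGGCGC on either strand in capitals. They lie at chr8:75109259-75109508 and chr11:98907901-98908150, both on the plus strand.
Mcm5: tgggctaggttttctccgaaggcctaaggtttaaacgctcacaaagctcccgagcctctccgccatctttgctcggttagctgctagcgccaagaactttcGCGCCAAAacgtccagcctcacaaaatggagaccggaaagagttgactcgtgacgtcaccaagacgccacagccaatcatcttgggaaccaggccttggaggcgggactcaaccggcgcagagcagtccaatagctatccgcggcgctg
Cdc6: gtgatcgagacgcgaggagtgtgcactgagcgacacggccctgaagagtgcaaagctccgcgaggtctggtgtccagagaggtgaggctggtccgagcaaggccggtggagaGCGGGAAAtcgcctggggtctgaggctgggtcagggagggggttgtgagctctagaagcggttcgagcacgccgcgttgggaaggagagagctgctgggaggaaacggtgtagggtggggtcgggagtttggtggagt
Each held 1 match. These letters were present in 4 of the 10 lower replication genes with a RefSeq promoter (40%), in none of 19 mitotic genes, in 3.12% of tested genes and in 1.51% of all genes with a promoter in the table. Myc, a driver of ribosome production, was lower too (9.28 and 8.91 CPM against 21.2 and 26.9 CPM), with Dkc1 and Srm, but 17 of the 20 genes of ribosome biogenesis were not DEGs. None of 27 respiratory chain genes was a DEG, with a median of 0.17, and of 24 glycolysis and hypoxia genes Hif1a was higher (466 and 505 CPM against 127 and 126 CPM) and Gpi1, Egln3 and Ero1l were lower; Egln3 was below the fold threshold without the second F4/80− library (-0.80).

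Myeloid transcription factors were higher in 10 of 33 cases and lower in 5. Beside Maf the higher ones included Zeb2 (2.08), Irf5 (1.99), Klf4 (1.28) and Mitf (2.23). The lower ones were Gata2, Gfi1 (-6.00), Cebpe (-4.65), Myb (-3.95) and Zbtb46 (-3.40), regulators of granulocyte, progenitor and dendritic cell programs. Without the first CX3CR1+ library Gfi1 was at -6.69 and Zbtb46 at -2.58, and without the second Zbtb46 was at -5.16.

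The same populations were sorted again on day 14, with 2 libraries each. There, 2578 DEGs were found by the same thresholds. Both days shared 1849 of them, 73% of the DEGs of day 1 and 71.7% of those of day 14, and 1841 had the same direction on both days. The interaction test asks whether the difference itself changed between the days, and 121 of all tested genes (1.01%) passed it with the same thresholds. Of these, 60 had a higher log2 (fold-change) on day 1 than on day 14 and 61 a lower one, whatever its size. Leaving out any 1 of the 8 libraries of this comparison brought the count down to between 55 and 79.

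Among neutrophil genes the change with the day was not in 1 direction. S100a8, a subunit of calprotectin, was at 316 and 277 CPM in CX3CR1+ macrophages and 4311 and 3751 CPM in F4/80− cells on day 1, and at 22.3 and 39.7 CPM and 5125 and 5206 CPM on day 14. Lcn2, which encodes lipocalin 2, was at 428 and 384 CPM and 5485 and 4623 CPM on day 1, and at 38.4 and 43.8 CPM and 3899 and 4362 CPM on day 14. In both genes, the CX3CR1+ libraries of day 1 were higher than those of day 14. Their change with the day passed in 3 (S100a8) and 6 (Lcn2) of the 8 fits that left out 1 library. Retnlg, a resistin-like gene of mature neutrophils, was at 0.394 and 1.61 CPM and 122 and 97.96 CPM on day 1, and at 4.34 and 5.37 CPM and 10.5 and 12.3 CPM on day 14, so that its difference was larger on day 1. Cd74, not a DEG on day 1, had a higher difference on day 14: it was at 694 and 623 CPM against 433 and 391 CPM on day 1 and 1013 and 1056 CPM against 249 and 264 CPM on day 14. This change with the day passed in 7 of the 8 fits that left out 1 library; the class II chain H2-Ab1 passed the interaction test too but in 2 of those fits, and H2-Aa and H2-Eb1 in none of them. Spp1, which encodes osteopontin, was a DEG on day 1, at 506 and 557 CPM against 109 and 120.2 CPM, and was at 14.8 and 20.5 CPM against 17.4 and 15.05 CPM on day 14.

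**Figure D5:**
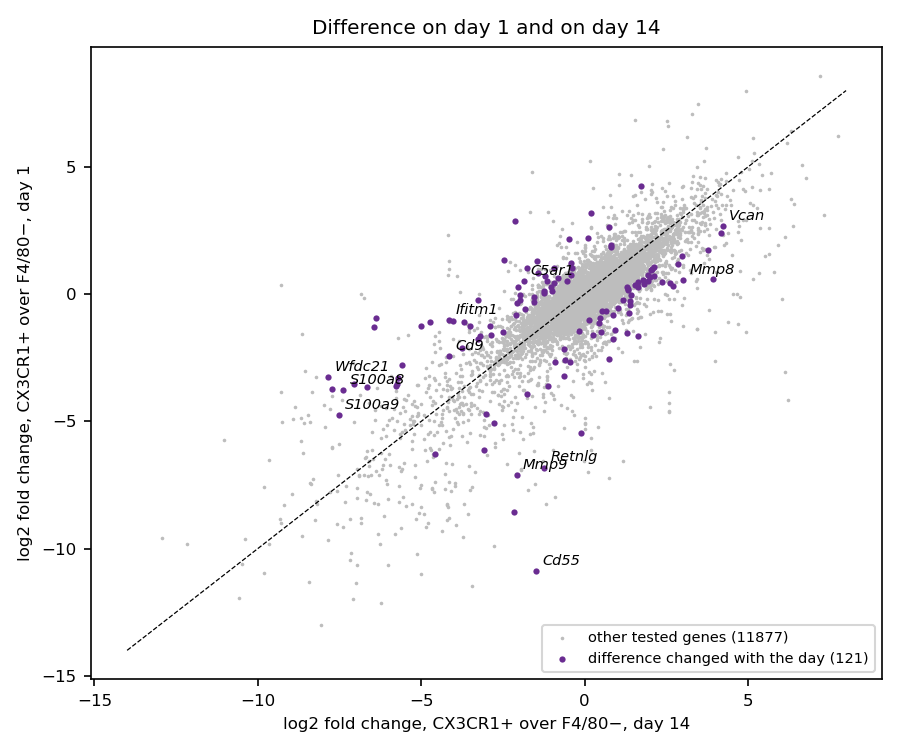
Log2 (fold-change) of CX3CR1+ macrophages over F4/80− cells on day 14 (x axis) and on day 1 (y axis) for each tested gene, with the line of equal values dashed; the 121 genes in purple passed the interaction test. S100a8 and S100a9 lie above the line and Mmp9, Retnlg and Cd55 below it.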

How the data were processed

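Live sorted myeloid cells from interface tissue were profiled by bulk RNA-seq (SMART-Seq Stranded Kit per the labels). The authors trimmed the reads with Cutadapt, mapped them to mm10 and counted reads in Gencode exons with STAR; the deposited table holds raw counts per gene for 16 libraries. The strand setting of the counting, and the filter that left 20200 genes, are not given in the sources used here.

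Libraries were grouped by title, and counts were tested with edgeR 4.0.16 in R 4.3.3 (TMM scaling, glmQLFit and glmQLFTest). Genes with a mean of at least 3 CPM in any of the 8 groups entered 1 fit over all 16 libraries, so that the groups shared the estimate of spread (common biological coefficient of variation 0.178), with contrasts for day 1, day 14, and their difference. A DEG had a Benjamini-Hochberg adjusted p below 0.05 and a log2 (fold-change) of at least 1 in size. Libraries of a group are pools of mice; with 2 per group, p-values rest on that spread. A population with no count was given a bound from 3 counts per library, and 1 to 3 counts a ratio with a 95% Poisson interval; both cover counting error only.

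The members and gene lists were chosen with earlier results of these data known. Genes were named by these rules: the genes of the gates, the 15 highest and 15 lowest log2 (fold-changes) among non-overlapping DEGs with at least 20 CPM in the higher group, the 10 DEGs per direction with the largest CPM difference, members of the 32 lists where a list is described, and those of them that passed the interaction test; a few such genes are not reported here. Same-numbered libraries of a day were taken as the same pool of mice, an inference from the numbers of mice used. The main fit held no term for this pairing, which entered only the replicate block named below. Over genes, deviations of same-numbered CX3CR1+ and F4/80− libraries correlated at 0.074. Alternatives were DESeq2 1.42.0, other filters, scalings and sample sets, the replicate block and leaving out each library; the comparison of F4/80− cells with neutrophils was added after seeing the data. The pipeline was tested on simulated counts. Promoters came from RefSeq (GRCm38.p6).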

Additional observations from a re-analysis of the deposited data

Results flagged for a closer look

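The difference between CX3CR1+ macrophages and F4/80− cells changed between day 1 and day 14 for some genes, by the interaction test of edgeR. These were 33 of the 531 tested genes of the lists or of the text (6.21%), against 121 (1.01%) of all tested genes. The lists were chosen with earlier results known, and text genes partly for their values here. The first share is thus no test of enrichment. Values below are the log2 (fold-change) of day 1 minus that of day 14, on 2 libraries per group. Higher and lower refer to the sign of this value. The size of a log2 (fold-change) regardless of sign is called the gap. All 33 passed by DESeq2 as well and 32 with the replicate block (all but Klrk1, at -2.62 with adjusted p = 0.0543), and 13 passed whichever of the 8 libraries was left out: Retnlg, Mmp9, Mmp8, Itgb3, Cd9, Spp1, Itga6, C5ar1, Cd63, Aif1, Ier3, Ifitm1 and Wfdc21.

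Genes of neutrophils changed in both directions. The day 1 difference was higher, that is less far below 0, for Wfdc21 (4.60), S100a8 (3.62), Lcn2 (3.02) and S100a9 (2.77). It was lower for Retnlg (-5.59), Mmp9 (-5.03), Mmp8 (-2.47) and the formyl peptide receptor Fpr1 (-2.83). Fpr1 changed direction, from -1.52 on day 1 to 1.31 on day 14. Cd55 (-9.38) had no count in the CX3CR1+ libraries of day 1, so that its fitted value depends on the prior count.

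Receptors for complement fragments had a higher difference on day 1: C3ar1 (2.63), C5ar1 (2.37) and C5ar2 (1.36). The same sign held for the tetraspanins Cd63 (2.43), Cd9 (1.71) and Cd81 (1.62), for Itga6 (2.30) and for Ifitm1 (3.11). It also held for the early response genes Ier3 (2.73), Nfkbia (1.94) and Egr1 (1.37), and for Aif1 (2.51), Spp1 (2.09) and Hif1a (1.149). Cd63, Cd9 and Cd81 had the larger gap on day 14, at -5.72, -4.16 and -3.76 against -3.29, -2.45 and -2.13 on day 1. Day 14 also held the larger gap for C5ar1, C5ar2, Itga6, Ifitm1, Nfkbia and Egr1. Ier3 changed direction, from 1.29 on day 1 to -1.44 on day 14. So did C3ar1 (2.16 to -0.47), C5ar1 (0.52 to -1.85), C5ar2 (0.43 to -0.93), Itga6 (0.27 to -2.03), Nfkbia (0.73 to -1.21) and Egr1 (0.13 to -1.24). Only C3ar1, Aif1, Spp1 and Hif1a had the larger gap on day 1.

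A lower difference on day 1 was found for the class II genes H2-Eb1 (-1.41), Cd74 (-1.33), H2-Ab1 (-1.23) and H2-Aa (-1.13), for the ISGs Oas2 (-1.66) and Ifitm3 (-1.43), and for Klrk1 (-2.64), Itgb3 (-1.99), Vcan (-1.55) and Bnip3 (-1.15). Of these, Itgb3 and Klrk1 had the larger gap on day 1, at -2.60 and -1.76 against -0.61 and 0.88 on day 14. Some of the changes named here rested on every library. Those of Nfkbia, Egr1, Vcan, Klrk1, H2-Aa and H2-Eb1 passed in none of the fits that left out 1 library. Those of Cd55, C5ar2 and S100a9 passed in 1 of these 8 fits. What lay behind these changes was not tested.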

How the results depend on the processing

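The count of 2533 DEGs on day 1 stayed within 1.5 times under most alternatives, between 2130 with the 8 libraries of day 1 alone and 2836 with the filterByExpr filter. It was 1085 when a gene needed 3 CPM in every group, which removes genes absent from 1 population and left 7687 to test, and 4381 without a fold threshold. Leaving out 1 of the 4 compared libraries gave 2205 to 2302, where the lone library was taken to vary like the other groups. DESeq2 gave 2625, of which 2492 were shared. The median over all genes lay between -0.06 and 0.01 under every alternative that changed the day 1 fit, so that no scaling shifted it by 0.1. The interaction count of 121 was 217 with DESeq2, 48 with a test against a 1.5-fold change and 55 to 79 when 1 of the 8 libraries was left out. With the replicate block the counts were 2529, of which 2473 were shared, and 142; the block changed no day 1 call of a gene named in the report, and among the named interaction calls it ended that of Klrk1. Over 194 named genes and all alternatives 3343 of the 3386 values kept direction and call. Values that changed sign were Csf3r, at 0.0072 with filterByExpr, 0.0088 with no filter, 4.11e-05 with the replicate block, and -0.026 to 0.023 in leave-outs, and Cd3d, at -0.47 to 5.33 in leave-outs; neither was a DEG. Lyz2 fell below the fold threshold with library sizes alone (0.99), the upper quartile (0.996) and the filter in every group (0.95), Itgb7 with library sizes alone and that filter, and Mmp12 in the day 1 fit. The causes were not tested. Genes with fewer than about 3 counts in a population have no measured fold at this depth.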
